A study of Mus musculus with 12 samples.

Results

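The enzymes described here make triglyceride by the glycerol phosphate route in the liver, apart from MOGAT2, which belongs to a route beside it. The list held 10 genes, *Gpam*, *Gpat4*, *Agpat2*, *Agpat3*, *Lpin1*, *Lpin2*, *Lpin3*, *Dgat1*, *Dgat2* and *Mogat2*, which were listed by name for their place in or beside the route. They are 10 of 54232 genes in the deposited count table, and all 10 were among the 17509 genes tested, those for which 6 or more livers had over 2 reads. Liver mRNA was sequenced from 6 WT and 6 *Marchf6* LKO male C57Bl/6J mice of 10 weeks, with 1 library per mouse (WT1 to WT6 and LKO1 to LKO6). All mice ate standard chow and had no food for 4 h before they were killed. Every mouse of either group carried the floxed *Marchf6* fl/fl alleles. LKO mice also carried AlbuminCre+, which places Cre under the albumin promoter, active in hepatocytes, and WT mice were their AlbuminCre- littermates. The whole liver was sampled, so its other cells were read together with the hepatocytes. The comparison addresses whether loss of the E3 ubiquitin ligase MARCHF6 from hepatocytes goes along with other transcript levels of the enzymes that assemble triglyceride.

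In the glycerol phosphate route, a glycerol 3-phosphate acyltransferase (GPAT) adds a first fatty acid to glycerol 3-phosphate, and an acylglycerol phosphate acyltransferase (AGPAT) adds a second to give phosphatidate. Lipins, the Mg2+-dependent phosphatidate phosphatases, remove the phosphate, and a diacylglycerol acyltransferase (DGAT) adds the last fatty acid. Monoacylglycerol acyltransferases such as MOGAT2 make diacylglycerol without glycerol 3-phosphate, a route best known from the intestine. In the liver the product is stored in lipid droplets or secreted in VLDL, and phosphatidate and diacylglycerol also feed phospholipid synthesis.

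The libraries held 14860414 to 22111926 counted reads each. *Marchf6* itself ranged from 226 to 247 CPM (read counts scaled to a common library size) in WT livers and from 204 to 249 CPM in LKO livers, and its log2 fold change was -0.09 (SE 0.060, adjusted p = 0.585, edgeR). The count covers the whole gene, so it does not check the loss of the floxed exon, and the sources name different exons as the floxed one. Hepatocyte markers were abundant in every liver, with 6 marker genes, *Alb*, *Apoa1* and *Cps1* with the most reads, summing to 92212 to 113944 CPM in WT and 83484 to 94370 CPM in LKO livers. The 6 Kupffer cell markers summed to 81.7 to 109 CPM in WT and 105 to 177 CPM in LKO livers, with 6 of 6 fold changes above 0. By edgeR 0 of the 6 were called and 5 had an unadjusted p under 0.05, where 11.7% of all genes did. DESeq2 called *Clec4f* (adjusted p = 0.026), *Vsig4* (adjusted p = 0.029) and *Cd5l* (adjusted p = 0.042). Over all 17509 genes DESeq2 called 351, where edgeR called 75. Among the marker lists, DESeq2 calls are given here for the Kupffer cell list only. In whole liver, a change in the number of cells of a type and a change in RNA per cell cannot be told apart.

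The sequences of the oligonucleotides with which the study's qPCR assays read 3 of these genes are shown because they fix which part of each transcript such an assay sees. All lie in coding sequence, and each matched every protein-coding GENCODE M21 transcript of its gene. They are written 5′ to 3′, and capitals mark the 9 bases of the *Dgat2* reverse primer that lie in exon 4.
Dgat1 forward: tccgtccagggtggtagtg
Dgat1 reverse: tgaacaaagaatcttgcagacga
Dgat2 forward: aaacagctgcaggtcatctca
Dgat2 reverse: TCCTGCCACctttcttgggc
Mogat2 forward: tacagctttggcctcatgc
Mogat2 reverse: agggctgtggtgtcatctg

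The *Dgat1* pair spans 199 nt of transcript, from exon 1 (chr15:76511706-76511724, GRCm38) to exon 2 (chr15:76506625-76506647). The *Dgat2* pair spans 172 nt, from exon 2 (chr7:99169732-99169752) to a reverse primer whose outer bases lie at chr7:99164697-99165092, on both sides of the intron between exons 3 and 4. The *Mogat2* pair spans 85 nt, from exon 5 (chr7:99222280-99222298) to exon 6 (chr7:99219921-99219939). All 3 genes lie on the minus strand.

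The 250 bases before a RefSeq start site of *Gpam*, *Lpin1* and *Lpin2* are shown because the levels of *Lpin2* ran together across livers with those of *Lpin1* and *Gpam*. They are read on the strand of the gene from RefSeq promoters on GRCm38.p6, which held entries for 6 of the 10 genes, 10 entries in all. Each window was searched on both strands for the E-box CACGTG, the sterol element TCACNCCAC and the CCAAT box, which do not overlap each other, and capitals mark the matches. Of 32851 promoters of this length, 6.02% held the E-box, 1.05% the sterol element and 33.8% the CCAAT box.
Gpam, chr19:55127239-55127488, minus strand: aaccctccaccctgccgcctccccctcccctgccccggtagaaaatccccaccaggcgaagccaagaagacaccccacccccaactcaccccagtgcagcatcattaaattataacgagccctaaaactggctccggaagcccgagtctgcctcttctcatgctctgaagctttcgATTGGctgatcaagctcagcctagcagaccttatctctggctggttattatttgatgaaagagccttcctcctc
Lpin1, chr12:16610967-16611216, minus strand: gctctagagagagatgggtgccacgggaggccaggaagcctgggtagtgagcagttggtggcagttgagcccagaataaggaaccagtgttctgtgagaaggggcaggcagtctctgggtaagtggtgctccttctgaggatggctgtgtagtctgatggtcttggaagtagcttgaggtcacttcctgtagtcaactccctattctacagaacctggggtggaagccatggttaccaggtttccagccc
Lpin2, chr17:71183282-71183531, plus strand: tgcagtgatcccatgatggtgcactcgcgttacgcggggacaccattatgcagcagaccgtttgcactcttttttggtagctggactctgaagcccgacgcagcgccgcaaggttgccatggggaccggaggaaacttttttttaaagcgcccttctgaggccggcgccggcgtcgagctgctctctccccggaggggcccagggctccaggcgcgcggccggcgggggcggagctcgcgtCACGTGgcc

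The *Gpam* window held a CCAAT box on the opposite strand, 74 bases before the start. The *Lpin2* window held an E-box 9 bases before the start, and it lies within the GENCODE span of *Lpin2*, which starts at 71182560. The *Lpin1* window, from the only entry of this gene, held none of the 3 motifs, and other starts of *Lpin1* were not searched. The start farthest upstream is shown for *Gpam* and *Lpin2*, and of their other windows the last of *Lpin2* held 3 CCAAT boxes. A match is a description of letters only, and binding was not measured.

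None of the 10 genes passed the test between genotypes, and the intervals below give the differences that the data allow. Of the 10 genes, 0 were called at an adjusted p under 0.05 by edgeR, where 0.428% of all 17509 genes were called, 0.274% higher and 0.154% lower in LKO livers. At an unadjusted p under 0.05 the count was also 0 of 10, beside 11.7% of all genes. The log2 CPM of the groups overlapped for 10 of 10 genes, while they did not overlap for 1.3% of all genes. limma voom and DESeq2 also called 0 of the 10 genes, and both had 0 of 10 at an unadjusted p under 0.05. The log2 fold change was above 0 for 6 genes and below 0 for 4, with a median of 0.12 where that of all genes was 0.00015. For 9 of the 10 genes it was smaller than 0.3 in size, as it was for 13425 of all 17509 genes. The intervals set the limit of this result: apart from *Lpin1* and *Mogat2*, the 95% intervals of the ratio LKO over WT lay between 0.733 (*Dgat2*) and 1.44 (*Lpin2*).

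**Figure D1:**
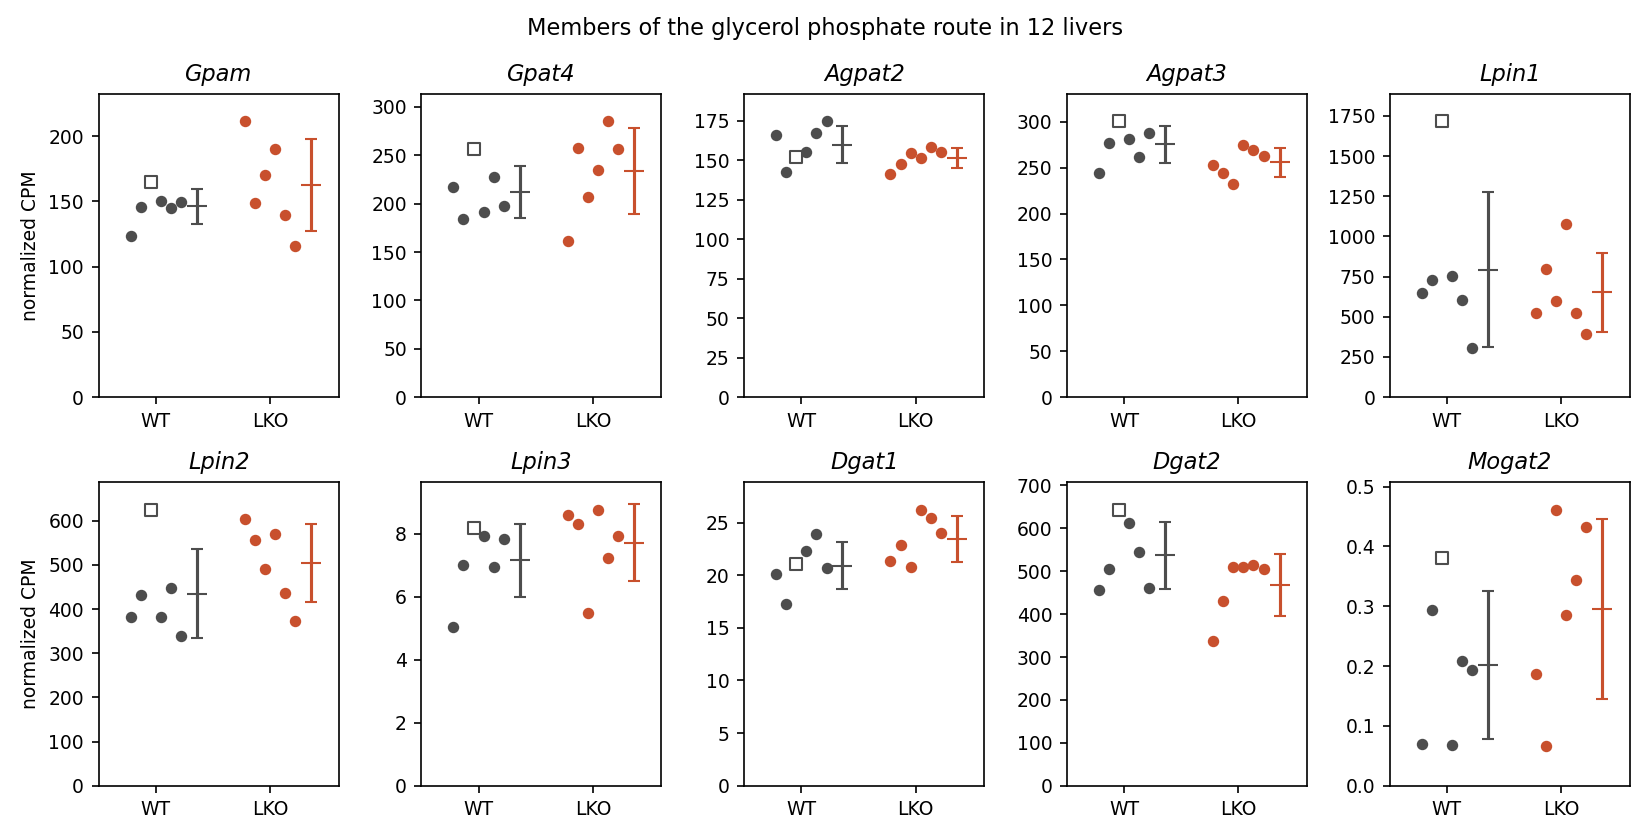
Normalized CPM (vertical axes, linear, from 0) of the 10 genes in 6 WT (grey) and 6 LKO (red) livers, 1 point per liver in the order of its replicate number, with the mean and SD at the right of each group. The open square is WT3, the highest WT liver for 8 of the 10 genes, and the groups overlap in every panel.

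The first acylation is shared by GPAM, the mitochondrial GPAT1, and GPAT4, an enzyme of the endoplasmic reticulum. *Gpam* (chr19:55067268-55127238, minus strand) had 124 CPM in the lowest, a median of 148 and 165 in the highest WT liver, and 116, 160 and 212 CPM in LKO livers. LKO livers thus held both the lowest and the highest value, and 3 of the 6 exceeded every WT liver while 1 lay below all of them. The mean was 146 ± 13.3 CPM in WT and 163 ± 35.1 CPM in LKO livers (SD over 6 livers each). On the log2 scale the difference was 0.15 (95% interval -0.11 to 0.42, adjusted p = 0.681). *Gpat4* (chr8:23171265-23208346, minus strand) ranged from 184 to 256 CPM with a median of 207 in WT livers and from 161 to 285 CPM with a median of 246 in LKO livers. The overlap was again wide, with 3 LKO livers above every WT liver and 1 below. Its log2 fold change was 0.14 (95% interval -0.12 to 0.40, adjusted p = 0.709). LKO1 had the highest *Gpam* and the lowest *Gpat4* of all 12 livers, at 212 and 161 CPM.

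AGPAT2 and AGPAT3, which acylate lysophosphatidate in internal membranes, had the tightest values of the 10 genes. *Agpat2* (chr2:26593057-26604417, minus strand) had 143, 161 and 175 CPM in the lowest, median and highest WT liver and 141, 153 and 158 CPM in LKO livers. All 6 LKO livers lay below the WT mean of 160 ± 11.7 CPM, yet only 1 lay below the lowest WT liver. LKO minus WT was -0.08 on the log2 scale (95% interval -0.21 to 0.05, adjusted p = 0.664). *Agpat3* (chr10:78269178-78352489, minus strand) had 244, 279 and 301 CPM in WT and 232, 258 and 274 CPM in LKO livers. All 6 LKO livers were again below the WT mean of 275 ± 20.1 CPM, with 1 below the lowest WT liver. Here the difference was -0.11 on the log2 scale (95% interval -0.25 to 0.03, adjusted p = 0.564). Both genes share exonic bases with a gene on the other strand, 64 nt of *Agpat2* with *Egfl7* and 16 nt of *Agpat3* with *Gm40709*, and the strand setting of the counting is not given in the sources used here.

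The lipins convert phosphatidate to diacylglycerol, and lipin 1 is also a transcriptional coactivator in the nucleus. *Lpin1* (chr12:16535669-16610966, minus strand) varied most. WT livers held 309 CPM in the lowest, a median of 689 and 1717 in the highest liver, and LKO livers 392, 561 and 1076 CPM. WT livers held both extremes: WT3 had 1717 CPM and WT6 had 309 CPM, and all LKO livers lay between them. The mean was 794 ± 480 CPM in WT and 652 ± 247 CPM in LKO livers (SD over 6 livers each). The difference on the log2 scale was -0.28 (95% interval -0.98 to 0.42, adjusted p = 0.793). WT3 decided the sign: without it the log2 fold change of *Lpin1* was 0.10 (adjusted p = 0.916).

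*Lpin2* (chr17:71182560-71249817, plus strand), the other main lipin of the liver, had 340, 407 and 625 CPM in the lowest, median and highest WT liver and 373, 523 and 603 CPM in LKO livers. The highest value was again WT3, and 5 of 6 LKO livers were above the WT mean of 435 ± 101 CPM. The log2 fold change was 0.22 (95% interval -0.10 to 0.53, adjusted p = 0.605), and without WT3 it was 0.35 with an adjusted p of 0.227. *Lpin3* (chr2:160880670-160906002, plus strand) was far lower, at 5.04 to 8.19 CPM in WT and 5.48 to 8.77 CPM in LKO livers. Its log2 fold change was 0.11 (95% interval -0.18 to 0.39, adjusted p = 0.815), and the groups overlapped over most of their range.

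DGAT1 and DGAT2 are unrelated proteins that catalyse the same last step. *Dgat1* (chr15:76502015-76511953, minus strand) had 17.3, 20.9 and 24.0 CPM in the lowest, median and highest WT liver and 20.8, 23.4 and 26.2 CPM in LKO livers. Of the LKO livers, 5 lay above the WT mean and 3 above every WT liver. The log2 fold change was 0.17 (95% interval -0.01 to 0.35, adjusted p = 0.474), with the lowest unadjusted p of the 10 genes (0.069, edgeR). *Dgat2* (chr7:99153658-99182719, minus strand) had 457, 525 and 644 CPM in WT and 337, 507 and 515 CPM in LKO livers. All 6 LKO livers lay below the WT mean of 537 ± 78.0 CPM, and 2 lay below the lowest WT liver. The log2 fold change was -0.20 (95% interval -0.45 to 0.05, adjusted p = 0.535). LKO1 was the lowest of all livers for *Dgat2*, at 337 CPM.

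*Mogat2* (chr7:99219084-99238619, minus strand) was barely read, at 1 to 6 reads in each WT library and 1 to 8 reads in each LKO library. These are 0.067 to 0.381 CPM in WT and 0.067 to 0.462 CPM in LKO livers. The log2 fold change of 0.53 had a 95% interval from -0.45 to 1.50 (adjusted p = 0.705), which includes 0 and leaves room for differences in either direction. The gene also shares 55 nt of exon with *Gm45012* on the other strand.

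**Figure D2:**
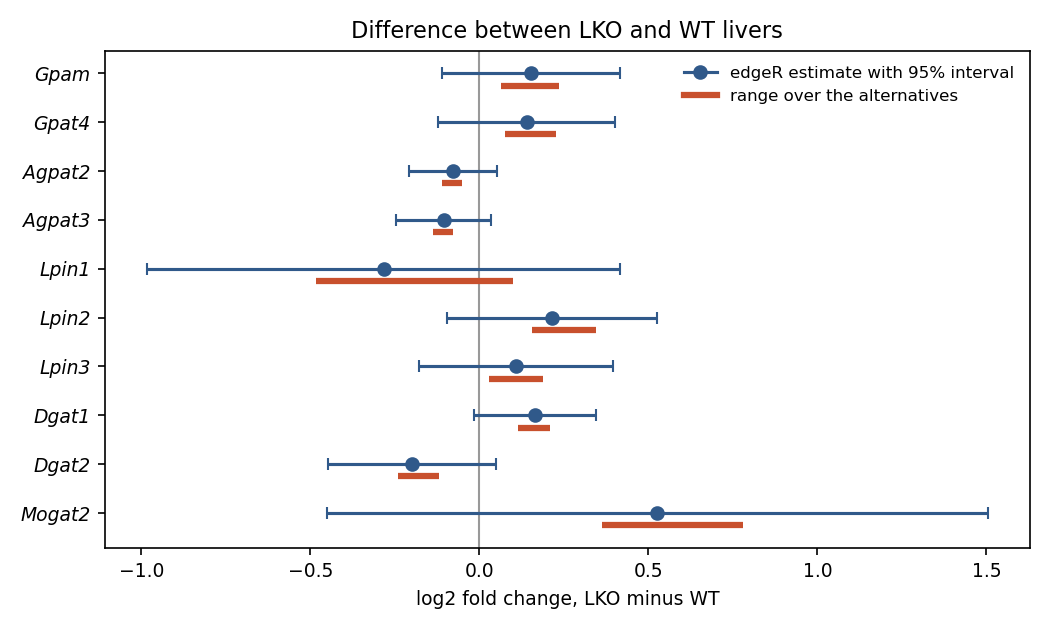
Log2 fold change, LKO minus WT, of the 10 genes (blue points, edgeR, 6 against 6 livers) with 95% intervals, and below each the range of the estimate over the other normalizations, filters, tests and livers left out (red bars). Every interval includes 0, and the red bar crosses 0 only for *Lpin1*, from -0.48 to 0.10.

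Levels of different genes were compared as normalized CPM per kb of merged exons. In WT livers the highest was *Dgat2* at 174 ± 25.3 (SD, n = 6), followed by *Lpin1* at 82.1 ± 49.6 and *Agpat2* at 75.0 ± 5.48. A middle group held *Lpin2* at 35.5 ± 8.25, *Agpat3* at 35.4 ± 2.58, *Gpat4* at 31.7 ± 4.05 and *Gpam* at 22.0 ± 2.00. *Dgat1* at 6.84 ± 0.733, *Lpin3* at 1.94 ± 0.313 and *Mogat2* at 0.11 ± 0.067 were lowest. The WT ranges of *Dgat2*, *Lpin1* and *Agpat2* overlapped from neighbour to neighbour, as did those of *Lpin2*, *Agpat3* and *Gpat4*. In LKO livers the order differed only among such neighbours: *Agpat2* at 71.0 ± 2.93 and *Lpin1* at 67.5 ± 25.5 changed places, and so did *Gpat4* at 35.0 ± 6.59 and *Agpat3* at 32.9 ± 2.02. With the longest coding transcript as the length, the WT order was the same, although the means of *Lpin1*, *Lpin2* and *Dgat1* came to 142, 77.1 and 11.1.

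Within each step the same isoenzyme led in both genotypes. Per kb, *Gpat4* exceeded *Gpam* in 11 of 12 livers, by 1.45 ± 0.200 times in WT and 1.53 ± 0.557 times in LKO livers (SD, n = 6 each). The exception was LKO1, where the ratio was 0.760. *Agpat2* exceeded *Agpat3* in 12 of 12 livers, 2.13 ± 0.257 times in WT and 2.17 ± 0.148 times in LKO livers. *Lpin1* exceeded *Lpin2* in 12 of 12 livers, although with the longest coding transcript as the length it did so in 10 of 12, and *Lpin2* exceeded *Lpin3* by 18.6 ± 4.13 times in WT and 20.1 ± 4.19 times in LKO livers. The ratio of *Dgat2* to *Dgat1* was 25.6 ± 3.68 in WT livers (22.1 to 30.3) and 19.8 ± 2.82 in LKO livers (15.6 to 24.2). Those ranges overlap, and the ratio was noticed after its values were seen, so it was not tested.

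**Figure D3:**
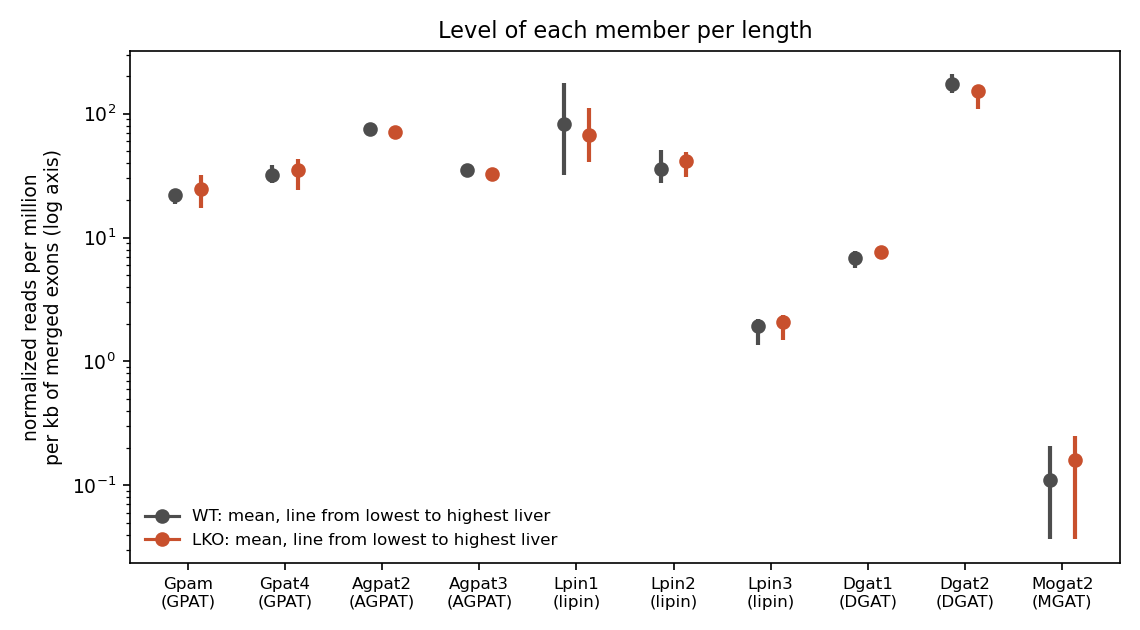
Normalized CPM per kb of merged exons (vertical axis, logarithmic) of the 10 genes in WT (grey) and LKO (red) livers, as the mean and the range from the lowest to the highest liver (n = 6 each), with the step of each enzyme under its name. *Dgat2* lies highest, at 174 in WT and 152 in LKO livers, and *Mogat2* lowest, at 0.11 and 0.16.

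The genes differed in how far livers of the same genotype lay apart. Within genotypes the SD of log2 CPM was 0.67 for *Lpin1*, larger than for 98.7% of the 7789 genes with a mean of at least 10 CPM. It was 0.29 for *Lpin2*, 0.26 for *Lpin3*, 0.24 for *Gpam*, 0.24 for *Gpat4* and 0.23 for *Dgat2*, each larger than for 78.8% to 87.0% of those genes. *Lpin3* is not itself one of them, with a mean of 7.16 CPM in WT and 7.72 CPM in LKO livers. *Dgat1* at 0.15 was near the middle (50.3%), and *Agpat3* at 0.099 and *Agpat2* at 0.086 were among the steadier genes (19.2% and 11.3%). *Mogat2* had 0.88, with at most 8 reads per liver.

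WT3 was the highest WT liver for 8 of the 10 genes and for 12 of 20 genes of the fasting and insulin response, but for 20.2% of the 7789 genes. WT6 was the lowest WT liver for 2 of the 10 genes and 11 of those 20, and for 22.0% of the 7789 genes. LKO1 was the highest LKO liver for 27.3% and the lowest for 28.1% of the 7789 genes. The part of such liver to liver differences in the fold changes was not tested beyond leaving out each liver in turn.

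Some members ran together across livers once each liver was set against the mean of its genotype. The points of these correlations share library and depth, and they are given as a description over 12 livers. *Lpin1* and *Lpin2* had Pearson's r = 0.82 and Spearman's rho = 0.71, with r = 0.61 without WT3 and WT6. *Gpam* and *Lpin2* had r = 0.71 and rho = 0.69, with r = 0.53 without LKO1 and LKO6. *Agpat3* and *Lpin3* had r = 0.79, but r = 0.35 without WT1 and LKO3. *Gpam* and *Gpat4*, the isoenzymes of the first step, ran opposite at r = -0.56, and at r = -0.22 without the livers farthest from the median. Of all 45 pairs, 6 had r above 0.5 and 3 below -0.5, with a median of 0.16.

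**Figure D4:**
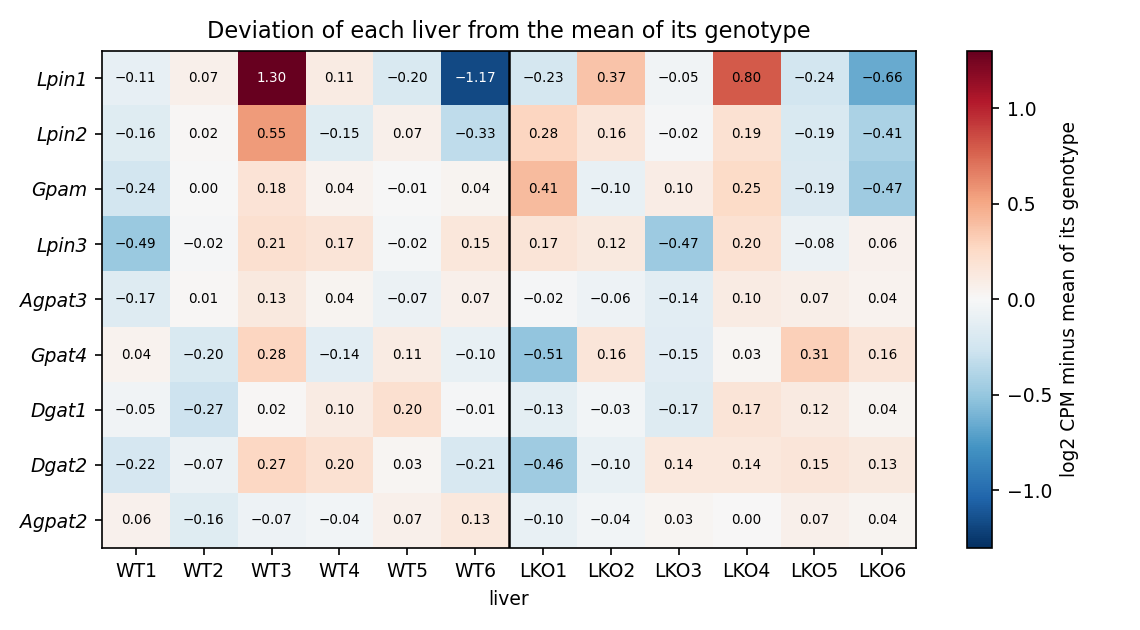
Log2 CPM of 9 genes (rows) in each of 12 livers (columns) minus the mean of its genotype, printed in each cell and coloured from blue (below) to red (above); *Mogat2* is left out for its few reads. *Lpin1* has the strongest colours, from -1.17 in WT6 to 1.30 in WT3, and *Lpin2* has the same sign in both of these livers.

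For *Lpin1*, *Gpam* and *Dgat2*, the genes with the most similar deviations were sought among 12774 genes over the 12 livers. The nearest to *Lpin1* were *Myh11*, the smooth muscle myosin heavy chain (r = 0.97), *mt-Co1*, a mitochondrially encoded subunit of cytochrome c oxidase (0.96), *Rusc2* (0.95), the cytochrome P450 gene *Cyp2c29* (0.94) and *Gm29216* (0.93). Nearest to *Gpam* were *2310011J03Rik* (r = 0.88), the leukocyte surface gene *Cd52* (0.88), *H2-DMa*, which loads peptides on MHC class II (0.87), the pseudogene *Spcs2-ps* (0.86) and *Plek*, the pleckstrin gene of platelets and leukocytes (0.85). With LKO1 and LKO6 left out, r with *Gpam* was 0.90, 0.63, 0.79, 0.83 and 0.62 for these genes in the same order. Nearest to *Dgat2* were *Shpk* (r = 0.95), *Ttc23* (0.94), *Ift172* (0.94), the mitochondrial carbonic anhydrase gene *Car5a* (0.94) and *Slc37a4*, the glucose 6-phosphate transporter (0.93). Of these 15 genes, 5 (without WT6) to 12 stayed among the nearest when 1 liver was left out.

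The other genes of the route held 1 gene that passed the test. Of 44 listed genes 38 were tested, and the called gene was *Pnpla3*, a lipid droplet protein with acyltransferase and hydrolase activity. It ranged from 0.386 to 2.67 CPM in WT and from 2.71 to 7.90 CPM in LKO livers, so the groups did not overlap, and its log2 fold change was 2.06 (adjusted p = 0.039, edgeR). Leaving out 1 of the 12 livers at a time ended the call in 9 cases, with an adjusted p of up to 0.105 (without WT4), and the call stayed without WT2, WT3 or LKO5. Of the 38 genes, 25 had a fold change above and 13 below 0, with a median of 0.05, and 4 (10.5%) had an unadjusted p under 0.05, beside 11.7% of all genes. Apart from *Pnpla3*, these were *Gpat3*, *Lclat1* and *Dgkz*.

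*Gpat3*, a GPAT of the endoplasmic reticulum best known from fat tissue, stood out by size among the other acyltransferases and was chosen after its values were seen. It had 2.15, 4.27 and 6.18 CPM in the lowest, median and highest WT liver and 4.04, 7.73 and 13.9 CPM in LKO livers. The groups overlapped, and the log2 fold change was 1.06 with an adjusted p of 0.206. The genes of that list with the most reads were *Lclat1*, a lysocardiolipin acyltransferase (57.3 to 71.7 CPM in WT and 50.7 to 64.4 CPM in LKO livers, log2 fold change -0.19, adjusted p = 0.322), *Abhd5*, the coactivator of the lipase ATGL (25.2 to 41.2 and 30.2 to 52.2 CPM), and *Agpat1* (8.98 to 13.5 and 10.0 to 15 CPM). In all, 0 of the 8 genes of that list were called by edgeR, with 4 fold changes above and 4 below 0. At an unadjusted p under 0.05 were 2 of the 8, beside 11.7% of all genes.

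Among 6 other phosphatases and lipin regulators 0 were called and 5 fold changes lay above 0. An unadjusted p under 0.05 was found for 0 of the 6, beside 11.7% of all genes. The gene with the most reads was *Plpp3*, a lipid phosphate phosphatase of the cell surface, with 204 to 277 CPM in WT and 193 to 219 CPM in LKO livers (log2 fold change -0.15, adjusted p = 0.463). *Ctdnep1* and *Cnep1r1*, which form the phosphatase complex that acts on lipins, ranged from 28.7 to 36.2 and from 17.1 to 20.4 CPM in WT livers, and from 29.6 to 37.1 and from 18.1 to 20.6 CPM in LKO livers. *Mogat1*, the paralog of *Mogat2*, had at most 11 reads in WT and 27 reads in LKO livers and a log2 fold change of 1.12 (adjusted p = 0.473). *Dgat2l6* and *Awat1*, relatives of *Dgat2*, had 0 reads in every liver. A further relative, *Awat2*, had 15 to 28 reads in WT and 14 to 35 reads in LKO livers (log2 fold change -0.08, adjusted p = 0.934, edgeR).

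No gene of the glycerol 3-phosphate supply or of the branches into phospholipids was called. Of 7 tested supply genes 0 were called and 0 had an unadjusted p under 0.05, where 11.7% of all genes did. *Pck1*, which starts glyceroneogenesis and gluconeogenesis, had 3445 to 5547 CPM in WT and 3515 to 5626 CPM in LKO livers (log2 fold change -0.08, adjusted p = 0.869). *Aqp9*, the glycerol channel of hepatocytes, ranged from 426 to 504 and from 418 to 510 CPM, and *Gpd1*, the cytosolic glycerol 3-phosphate dehydrogenase, from 333 to 557 and from 309 to 549 CPM. Of 14 tested branch genes 0 were called, and 1 had an unadjusted p under 0.05, the diacylglycerol kinase gene *Dgkz* (33.6 to 41.6 CPM in WT and 38.3 to 45.3 CPM in LKO livers). *Chpt1*, which uses diacylglycerol to make phosphatidylcholine, ranged from 183 to 249 and from 202 to 287 CPM (log2 fold change 0.13, adjusted p = 0.653). *Pcyt2* ranged from 485 to 540 and from 449 to 587 CPM, and *Pemt* from 172 to 214 and from 167 to 220 CPM, enzymes of phosphatidylethanolamine and phosphatidylcholine synthesis.

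**Figure D5:**
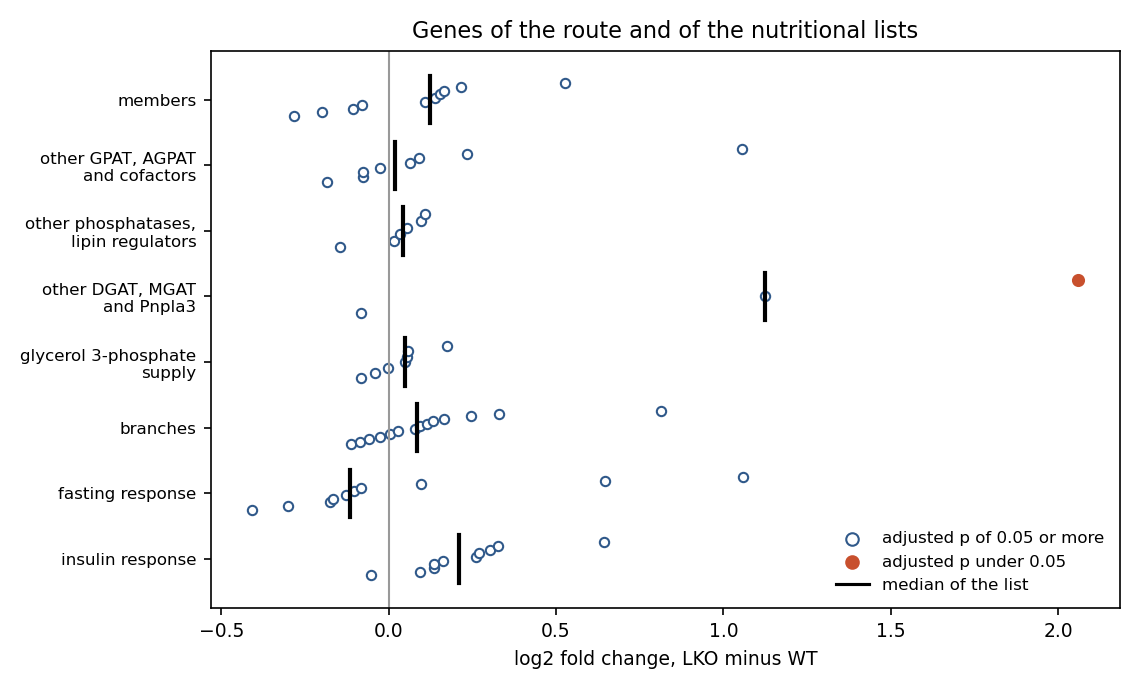
Log2 fold change, LKO minus WT, of the tested genes of the route and of 2 nutritional lists (rows), 1 point per gene, filled red where the edgeR adjusted p was under 0.05 and open otherwise, with a black bar at the median of the list. The filled point at 2.06 is *Pnpla3*, and the medians lie at 0.12 for the 10 genes, -0.12 for the fasting and 0.21 for the insulin list.

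Since several enzymes of the route respond to feeding, the levels of fasting and insulin response genes are given beside them. Of the 20 genes 0 were called by edgeR, and 2 (10%) had an unadjusted p under 0.05, beside 11.7% of all genes. These were *Pdk4* (2.25 to 6.15 CPM in WT and 4.48 to 25.0 CPM in LKO livers) and *Scd1*. The 10 fasting genes had 3 fold changes above and 7 below 0 with a median of -0.12, and the 10 insulin genes had 9 above and 1 below with a median of 0.21. *Scd1*, the stearoyl-CoA desaturase, had 19154 CPM in the median WT and 32827 CPM in the median LKO liver (log2 fold change 0.64, adjusted p = 0.136). It was called without WT3 (log2 fold change 0.85, adjusted p = 0.00263) and by DESeq2 (adjusted p = 0.021). *Fasn* and *Acly*, which make fatty acids and their acetyl-CoA, had log2 fold changes of 0.26 (adjusted p = 0.685) and 0.27 (adjusted p = 0.747), and the fasting genes *Tat* and *Cpt1a* had -0.17 (adjusted p = 0.867) and -0.10 (adjusted p = 0.685). The part of nutritional state in the levels of the 10 genes was not tested.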

How the data were processed

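Livers were grouped by the genotype in their labels. The deposited table holds unnormalized read counts for each Ensembl gene, with no gene filter. The authors prepared KAPA mRNA HyperPrep libraries, used Trimmomatic 0.36 for trimming, HISAT2 2.1.0 for alignment to GRCm38.p6 and HTSeq 0.6.1 for counting. Strand setting and overlap mode are not given in the sources used here. GENCODE M21 named 54165 of 54232 identifiers. Genes were kept where 6 or more livers had over 2 reads. After TMM scaling, edgeR 4.0.16 (R 4.3.3) gave two-sided quasi-likelihood tests of genotype, without covariates, adjusted by Benjamini-Hochberg over every gene kept. CPM are TMM-normalized, and log2 CPM used a prior count of 0.5. Depth describes counting error only. The scripts were tested on simulated data. limma 3.58.1 and DESeq2 1.42.0 were alternatives.

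The 10 genes and the gene lists were chosen with earlier results of these data known, so counts over them are descriptions. The text names all 10 genes, *Marchf6*, from each list of route and nutritional genes those at an adjusted p under 0.05 and otherwise the 3 with the highest mean CPM, from each marker list the called gene or that with the highest mean CPM, and for *Gpam*, *Lpin1* and *Dgat2* the 5 genes with the highest correlation among those with a mean of at least 1 CPM. *Gpat3*, *Mogat1*, *Dgat2l6*, *Awat1*, *Awat2*, *Dgkz*, *Pdk4* and further marker genes, among them those at or near 0, are named outside this rule. They were picked with their values in view. The remaining marker lists, adipocyte, enterocyte, acinar, lymphocyte, stellate, endothelial and cholangiocyte, are given under the other observations.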

Additional observations from a re-analysis of the deposited data

Results flagged for a closer look

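In a search for a liver that stands apart from the other 5 of its genotype, 14 of 140 groups of 6 livers had a gap from the highest or lowest liver to its neighbour that, as a share of the whole range, passed Dixon's 95% critical value for 6 samples. The gaps were taken on normalized CPM and not on log2 CPM, and which groups are flagged can depend on that scale. For independent groups of normally distributed values, chance flags about 1 in 20, here about 7. The genes share the same livers, and some were picked for deviations like those of *Lpin1*, *Gpam* or *Dgat2*. That number is therefore only a rough guide, and no conclusion is drawn from the count. WT3 was the highest WT liver for *Lpin1* (gap 0.686 of the range), *Plpp3* (0.628) and the sinusoidal endothelial gene *Stab1* (0.691). LKO1 was the highest LKO liver for *Gpd1* (0.738), *Spp1* (0.804), *Fabp4* (0.899) and *Plek* (0.664). WT2 was the highest WT liver for *Gpd1* (0.813) and *Fabp4* (0.681), and WT4 for *Cfd* (0.633). WT1 was the lowest WT liver for *Clec4f* (0.753) and *H2-DMa* (0.680). LKO5 was the lowest LKO liver for *Apoa1* (0.638), and LKO4 the highest for *Gm29216* (0.764).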

How the results depend on the processing

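Of 199 other estimates for the 10 genes, 198 kept their direction and stayed uncalled. The exception in direction was *Lpin1*, at a log2 fold change of 0.10 without WT3, within a range of -0.48 (without LKO4) to 0.10 over the livers left out. *Mogat2* could not be tested at 10 or more reads in every liver. The count over all genes was 75, and it was 114 without a filter, 351 with DESeq2 (181 higher) and 38 (without WT5) to 132 (without WT3) with 1 liver left out. *Pnpla3* was the called gene of the route, and the count was 0 to 1 with 1 liver left out. The count was 0 with at least 10 reads in every liver, a filter that removes *Pnpla3* (6 reads in its lowest WT liver) before testing. Of the fasting and insulin genes 1 (*Scd1*) was called with DESeq2, and 0 to 1 (*Scd1*, without WT3) with 1 liver left out. Of the 15 genes nearest to *Lpin1*, *Gpam* and *Dgat2*, 5 to 12 were kept with 1 liver left out and 13 with RLE factors, alternatives chosen after seeing the data. The cause of the other changes was not tested.

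The replicate numbers belong to different mice, and they were not taken as pairs: same-numbered livers had r from -0.23 to 0.46, over 0.1 in 5 of 6, and 0 of 6 correlated best with their own number. With the replicate number as a block, 97 genes were called, among them 0 of the 10 (2 at an unadjusted p under 0.05), 1 of the route and 0 of the fasting and insulin genes. Depth limits genes with few reads, such as *Mogat2*, and the intervals allow modest differences for every one of the 10 genes. For *Lpin1* and *Mogat2* they also allow larger ones, with ratios LKO over WT of 0.506 to 1.33 and 0.731 to 2.84.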

Other observations

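Markers of other cells were read beside the route. Adipocytes also make triglyceride, and their markers *Adipoq*, *Plin1* and *Retn* had at most 1 read per liver and *Lep* had 0 reads, while *Cfd* had 2 to 11 reads in WT and 2 to 14 reads in LKO livers. *Fabp4*, which macrophages and endothelial cells also express, ranged from 4.31 to 16.1 CPM in WT and from 6.95 to 36.4 CPM in LKO livers. Enterocytes are the main site of *Mogat2*, and *Alpi* and *Sis* had 0 reads while *Lct* and *Cdx2* had at most 2. *Vil1* had at most 4 reads per WT and 7 reads per LKO liver, numbers near those of *Mogat2*. *Fabp2*, which the liver also expresses, was called higher in LKO livers (log2 fold change 0.63, adjusted p = 0.020, edgeR), and the call ended without WT1 (adjusted p = 0.056) or without WT5 (adjusted p = 0.055). *Cela1*, listed as an acinar marker, was called lower (log2 fold change -0.97, adjusted p = 0.011, edgeR). It had 275 to 462 reads in WT and 157 to 233 reads in LKO livers. The other acinar markers, *Cpa1*, *Pnlip*, *Amy2a5* and *Prss2*, had at most 1 read per liver. The cells that gave the *Cela1* reads were not determined.

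In the marker counts below, an unadjusted p under 0.05 compares with 11.7% of all genes (edgeR). Of 7 stellate cell markers, *Dcn* with the most reads, 7 had fold changes above 0 and 0 were called (1 at an unadjusted p under 0.05, edgeR). Of 6 sinusoidal endothelial markers, *Stab1* with the most reads, 5 lay above 0 and 0 were called. At an unadjusted p under 0.05 was 1 of them, *Lyve1* (log2 fold change 0.77, adjusted p = 0.103, edgeR). Of 5 cholangiocyte markers, *Spp1* with the most reads, 3 lay above 0 and 0 were called, with 1 at an unadjusted p under 0.05. Of 5 B cell markers 4 lay above 0, while *Ighm*, the heavy chain of IgM, was called lower, with 14.2 to 22.9 CPM in WT and 4.38 to 6.32 CPM in LKO livers (log2 fold change -1.78, adjusted p = 4.06e-06). Of 3 tested T cell markers, *Trac* with the most reads, 0 were called and 0 had an unadjusted p under 0.05. Of 6 hepatocyte markers 1 lay above and 5 below 0, with 0 called and 2 at an unadjusted p under 0.05. The part of other cells in the levels of the 10 genes was not tested.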
